A study of Mus musculus with 3 samples.

Results

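C1q macrophages of the corpus (the body) and the cauda (the tail) of the mouse epididymis were selected on measured RNA values, in single-cell counts, as cells in which the complement genes C1qa, C1qb and C1qc together had at least 15 UMIs (unique molecular identifiers, 1 per captured RNA molecule) per 10000 UMIs of the cell. They also had at least 1 UMI of Csf1r or Adgre1, which encode the CSF1 receptor and the F4/80 antigen of macrophages. Cells with more than 2 UMIs of Cd3e, Pecam1 and Krt5 together (T cell, endothelial and basal cell genes) or of the mast cell genes Cpa3, Cma1 and Tpsb2 were left out, as were cells with fewer than 200 detected genes. This gave 821 of the 9616 corpus and cauda cells kept, with 222 of 4831 in the corpus and 599 of 4785 in the cauda. The caput (the head of the organ, next to the testis), with 145 of 4939 cells passing the same limits, was used only for comparison. All 3 regions came from wild-type C57Bl/6J mice aged 56 days with no treatment, and each region gave 1 library. The number of animals behind a library is not stated in the labels used here.

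Sperm mature and wait in the epididymis, a long coiled duct, and macrophages lie along it both inside the epithelium and in the connective tissue around it. C1q is the recognition part of the classical complement pathway and is made largely by tissue macrophages. Cd163 (the receptor for haemoglobin bound to haptoglobin) and Lyve1 (a receptor for hyaluronan, also found on lymphatic endothelium) mark macrophages that sit around vessels and in connective tissue of many organs, where macrophages low in both often carry more MHC class II, the molecules that present antigen to helper T cells. The question followed here is how macrophages with any UMI of Cd163 or Lyve1 (called Cd163/Lyve1+ cells below) differed from those with no UMI of either (called double-negative cells).

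The libraries held 21279900 corpus, 18218600 cauda and 41462300 caput UMIs in kept cells, rounded to 6 digits, with medians of 2654, 2198 and 5077 UMIs per cell. C1q macrophages had a median of 3042 UMIs in the corpus, 3890 in the cauda and 3273 in the caput. Mitochondrial transcripts made up a median of 10.8% of the UMIs of corpus macrophages and 6.34% of those of cauda macrophages. The corpus and cauda libraries shared 14 cell barcodes, and no barcode was shared between their macrophages. Because a region had a single library, nothing could be checked against replicates and no test was made, a region cannot be told apart from its library, and the intervals below (95%, exact) cover counting error only. Levels are CPM, the UMIs of a gene per 1000000 UMIs of all genes, summed over the cells of a set. In such sums fewer expressing cells and less RNA per cell cannot be told apart.

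The C1q level that chose the cells had a median of 59.7 UMIs per 10000 in corpus and 70.6 in cauda macrophages. Of the other cells 18.7% in the corpus and 47.1% in the cauda had a C1q UMI, and the 90th percentile of the other cauda cells (14.6 UMIs per 10000) came close to the limit of 15. Just inside the limit (15 to 20) lay 10 corpus and 31 cauda cells, and just outside it (10 to 15) lay 13 and 44 cells that met the other limits. Cd163 or Lyve1 was seen in 40% and 32.3% of the cells just inside and in 0% and 45.5% of those just outside, in the order corpus, cauda.

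The name was checked against marker genes. The markers of this population (C1qa, C1qb, Cd163, Lyve1 and Ccl8) and all 18 resident macrophage markers were at least 2-fold higher in the chosen cells than in the other cells of both libraries, which describes the choice and is no finding. C1q macrophages against all other cells gave 242 of 11175 genes (2.17%) at least 4-fold higher and 16 (0.143%) at least 4-fold lower in both libraries. Besides the genes of the rule, they were led by Fcna, Ccl8, C5ar1, Pf4, Ccl12, Mrc1 and F13a1. Ccl8, a monocyte-attracting chemokine, had 3431 CPM in corpus macrophages and 42.2 CPM in other corpus cells, and 4262 CPM in cauda macrophages and 220.3 CPM in other cauda cells. Markers of lymphatic endothelium, the other cell type known for Lyve1, summed to 6.03 CPM in corpus macrophages (Prox1 and Flt4 at 0) and 2.36 CPM in cauda macrophages. T or NK cell markers summed to 27.7 and 34.0 CPM in the same 2 sets, with Trac, Klrb1c and Ncr1 at 0 in the corpus, and Cd79a of B cells was at 0 in both. Folr2, often used as a marker of Lyve1+ macrophages, was scarce: 5 of 222 corpus macrophages (2.25%) and 28 of 599 cauda macrophages (4.67%) had a UMI of it.

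Cd163/Lyve1+ cells made up 95 of 222 corpus macrophages (42.8%, interval 36.2 to 49.6) and 404 of 599 cauda macrophages (67.4%, 63.5 to 71.2). Of the 145 caput macrophages 4 had a UMI of either gene (2.76%, 0.757 to 6.91). For comparison, cells with fibroblast collagen RNA and no Csf1r or Adgre1 had one in 6.61% of 1482 corpus, 10.7% of 3537 cauda and 2.98% of 504 caput cells. Their medians were 2195, 1629 and 3545 UMIs. These cells are a wide set, with 3537 of the 4785 kept cauda cells. Of its cauda cells 46.7% had a C1q UMI, and lymphatic endothelial markers summed to 21.0 CPM in its corpus cells. Whether the set holds cells that make Cd163 or Lyve1 was not tested. The caput share of macrophages was no higher than that of this set, while the corpus and cauda shares were above those of the set in the same library. The order of the regions was the same when each cell was thinned to 1000 UMIs, which left out 32 cauda and 0 corpus macrophages: 62 of 222 (27.9%, 22.1 to 34.3) in the corpus, 288 of 567 (50.8%, 46.6 to 55.0) in the cauda and 0 of 145 in the caput, where a count of 0 allows up to 2.07%.

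**Figure D1:**
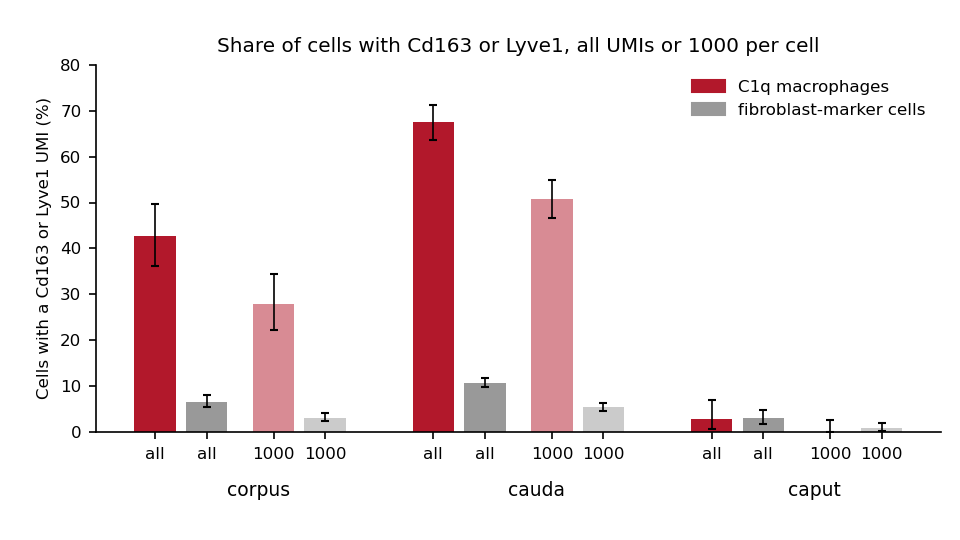
The vertical axis gives the percent of cells with at least 1 Cd163 or Lyve1 UMI, in C1q macrophages (red) and fibroblast-marker cells (grey) of each library; "all" uses every UMI and "1000" (pale) uses cells thinned to 1000 UMIs. Bars are shares and lines exact 95% intervals; the macrophage share is 42.8% in the corpus, 67.4% in the cauda and 2.76% in the caput.

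Both genes together were seen in 39 corpus (17.6%) and 193 cauda macrophages (32.2%). Lyve1 alone was seen in 36 and 154 cells, Cd163 alone in 20 and 57, and neither in 127 and 195. Cd163/Lyve1+ cells had more UMIs per cell: a median of 3815 against 2632 in double-negative cells of the corpus, and 4491.5 against 2583 in the cauda. How many double-negative cells lack both genes only for want of depth was not tested. The levels below are scaled to the sum of UMIs of each set.

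Cd163/Lyve1+ cells against double-negative cells, compared within each library, differed in 70 genes by the size rule used here, which asks for a ratio of at least 2 with an interval excluding 1 and at least 30 UMIs in the higher set, the same way in both libraries. Of 2334 genes tested, 37 were higher (1.59%) and 33 lower (1.41%) in Cd163/Lyve1+ cells, Cd163 and Lyve1 themselves not counted among them. The higher genes included lectins, scavenger receptors and other genes of resident, perivascular macrophages, and the lower ones included MHC class II genes, Cx3cr1 and Il1b. The ratio lay on the same side of 1 in both libraries for 1430 of the 2334 genes.

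**Figure D2:**
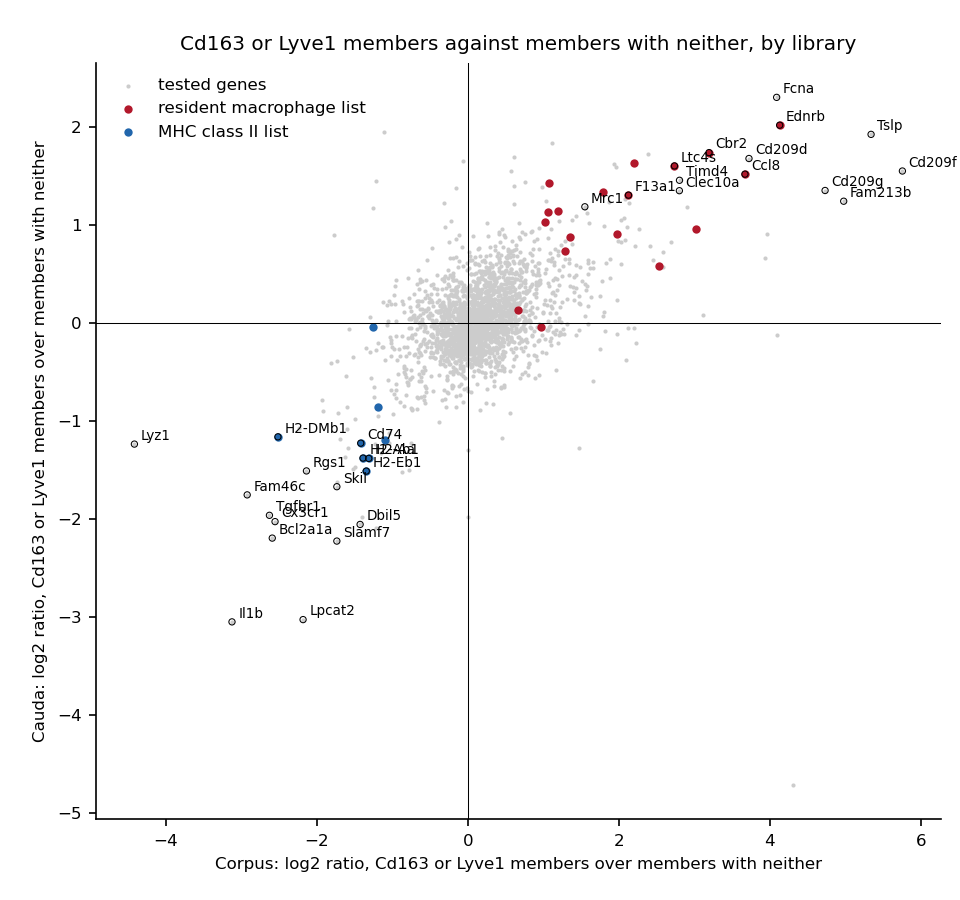
Each point is 1 of the tested genes in C1q macrophages (members); the axes give the log2 ratio of Cd163/Lyve1+ cells over double-negative cells in the corpus (horizontal) and in the cauda (vertical). Most resident macrophage genes (red) lie to the upper right and most MHC class II genes (blue) to the lower left, and named genes are ringed.

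Of a list of 20 genes of perivascular or Folr2+ resident macrophages, which does not hold Cd163 or Lyve1, 19 were tested; 12 were higher and 0 lower in Cd163/Lyve1+ cells. The list's median log2 ratio was 1.79 in the corpus and 1.13 in the cauda, against 0.13 and 0.02 over all genes tested. Ccl8 had 6089 CPM in Cd163/Lyve1+ cells and 478.6 CPM in double-negative cells of the corpus, a ratio of 12.7 (11.0 to 14.8), and 5063 CPM and 1765 CPM in the cauda, a ratio of 2.87 (2.71 to 3.04). It was higher in Cd163/Lyve1+ cells of both regions, and the double-negative cells of the cauda held more of it than those of the corpus. Ednrb, the endothelin B receptor, had 712.7 CPM and 40.7 CPM in the corpus and 630.4 CPM and 155.4 CPM in the cauda, in the same order of cells. Cbr2, a carbonyl reductase, had 861.7 CPM and 94.2 CPM in the corpus and 815.8 CPM and 244.2 CPM in the cauda. F13a1 (coagulation factor XIII A chain) was 4.37-fold (3.49 to 5.51) and 2.47-fold higher (2.23 to 2.75) in the corpus and the cauda. Gas6, a ligand of the TAM receptors that bind dying cells, was 3.46-fold and 2.53-fold higher, and the transcription factor gene Maf 2.03-fold and 2.05-fold. Folr2 was at 11.5 CPM and 0 CPM in the corpus and 12.003 CPM and 6.94 CPM in the cauda.

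C-type lectins and scavenger receptors were higher in Cd163/Lyve1+ cells as well. Of a list of 21 such genes 14 were tested, and 7 were higher and 0 lower, with median log2 ratios of 1.46 in the corpus and 1.27 in the cauda. Mrc1, the mannose receptor CD206, had 1698 CPM in Cd163/Lyve1+ cells and 580.5 CPM in double-negative cells of the corpus, and 1971 CPM and 865.8 CPM in the cauda. Clec10a, the galactose lectin CD301, had 479.0 CPM and 68.7 CPM in the corpus and 470.8 CPM and 184.5 CPM in the cauda. Fcna, the secreted lectin ficolin A, had 476.7 CPM and 28.0 CPM in the corpus, a ratio of 17.0 (9.32 to 34.6), and 658.0 CPM and 133.2 CPM in the cauda, a ratio of 4.94 (4.02 to 6.14). Timd4, a receptor for the phosphatidylserine of dying cells, had 71.0 CPM and 10.2 CPM in the corpus and 80.02 CPM and 29.1 CPM in the cauda. Each of these was higher in Cd163/Lyve1+ cells of both libraries, and each ratio was wider in the corpus.

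Among the named genes 3 belong to the Cd209 family, relatives of the human lectin DC-SIGN that lie on mouse chromosome 8. Cd209f had 120 UMIs in Cd163/Lyve1+ cells and 2 UMIs in double-negative cells of the corpus (275.0 CPM and 5.09 CPM, ratio 54.0, interval 14.6 to 451) and 778 and 85 UMIs in the cauda (345.9 CPM and 117.9 CPM, ratio 2.93, 2.34 to 3.71). Cd209g had 135.2 CPM and 5.09 CPM in the corpus and 134.7 CPM and 52.7 CPM in the cauda. Cd209d was not detected in corpus double-negative cells, so that at a floor of 3 UMIs over the set it was at least 13.2-fold higher in the Cd163/Lyve1+ cells of the corpus, where 11 of its 44 UMIs came from 1 cell. In the cauda it was 3.20-fold higher (1.55 to 7.68). The start regions of Cd209f and Cd209g, shown because both genes moved together, share an identical run of 180 bases, which begins 154 bases before the start in Cd209f and 168 bases before it in Cd209g. They are given from 250 bases before to 50 bases after the start of each gene (RefSeq, GRCm38.p6), 5′ to 3′ on the gene's strand, with the shared run in capitals.
Cd209f, chr8:4105715-4106014, minus strand: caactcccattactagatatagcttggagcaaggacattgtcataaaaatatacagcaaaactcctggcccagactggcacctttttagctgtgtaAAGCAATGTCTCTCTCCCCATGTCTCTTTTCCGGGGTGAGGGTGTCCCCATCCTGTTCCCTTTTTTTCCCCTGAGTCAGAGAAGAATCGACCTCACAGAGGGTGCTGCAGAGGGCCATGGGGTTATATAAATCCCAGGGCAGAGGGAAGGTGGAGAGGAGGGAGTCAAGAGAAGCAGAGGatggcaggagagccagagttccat
Cd209g, chr8:4134486-4134785, plus strand: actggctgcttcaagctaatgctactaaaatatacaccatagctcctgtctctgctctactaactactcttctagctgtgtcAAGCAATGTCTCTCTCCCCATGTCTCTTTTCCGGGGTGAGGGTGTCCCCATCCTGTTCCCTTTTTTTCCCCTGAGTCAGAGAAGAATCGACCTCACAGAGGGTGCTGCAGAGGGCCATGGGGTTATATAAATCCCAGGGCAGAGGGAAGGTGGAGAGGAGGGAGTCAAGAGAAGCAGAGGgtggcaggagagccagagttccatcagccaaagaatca
Only the start regions were compared, not the transcripts that the reads come from. Genes of the same family can share reads, and the labels do not say how the counting assigned such reads, so the separate levels of Cd209f and Cd209g are uncertain.

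The ratios depended on how the sets were divided at lower depth. Each cell was thinned to 1000 UMIs and the division made again. Of the Cd163/Lyve1+ cells, 33 of 95 in the corpus and 109 of 397 in the cauda then showed neither gene and counted as double-negative. The corpus ratio was then 7.31 (2.75 to 22.6) for Cd209f, 4.84 (4.14 to 5.68) for Ccl8, 2.96 (1.90 to 4.61) for Ednrb, 5.55 (3.77 to 8.29) for Cbr2 and 7.74 (3.94 to 16.3) for Fcna. In the cauda Ccl8 had a ratio of 1.70 (1.57 to 1.84) and Fcna 2.88 (2.19 to 3.82). Mrc1 (1.95), Cd209g (1.98) and Ltc4s (1.87) also fell under 2 there, while genes such as Cd209f (2.34), Ednrb (2.66), Cbr2 (2.11) and F13a1 (2.32) did not. H2-Aa had ratios of 0.229 and 0.474 and Cd74 0.292 and 0.527 in corpus and cauda, so Cd74 missed the limit in the cauda. Tslp and Timd4 each rested on 5 against 3 UMIs in the corpus. When the same thinned counts were compared with the division by all UMIs kept, the corpus ratios were 29.4 (4.75 to 1210) for Cd209f, on 22 against 1 UMI, 12.6 (9.79 to 16.5) for Ccl8, 13.4 (6.47 to 32.0) for Ednrb, 13.98 (7.53 to 28.8) for Cbr2 and 20.1 (6.44 to 101) for Fcna. Each of these genes was higher in Cd163/Lyve1+ cells under both divisions.

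Among the other genes that passed the size rule upward were Tslp, Fam213b and Ltc4s, and, listed here after their values were seen, C6, Chp2, Pla2g2d, Clec4n, Pmp22, Fcgrt, Sepp1, Cd38, Dab2 and Nrp1. Tslp, a cytokine best known from epithelial cells, had 45 UMIs against 1 UMI in corpus double-negative cells (103.1 CPM and 2.55 CPM, ratio 40.5, interval 6.91 to 1640) and 261 against 22 UMIs in the cauda (116.0 CPM and 30.5 CPM, ratio 3.80, 2.46 to 6.17). The sum of all cells that were not C1q macrophages had 2.30 CPM of it in the corpus and 7.67 CPM in the cauda, below the level of Cd163/Lyve1+ cells in both. Ltc4s, which makes the leukotriene LTC4, had 339.2 CPM and 50.9 CPM in the corpus and 388.1 CPM and 127.6 CPM in the cauda. Of the complement list (14 genes, 11 tested) 2 were higher, among them C4b, with 130.6 CPM and 35.6 CPM in the corpus and 228.1 CPM and 97.1 CPM in the cauda. C1qa and C1qb did not pass, with log2 ratios of 0.04 and 0.09 in the corpus and 0.14 and -0.04 in the cauda. The cells of both sets were chosen on C1qa, C1qb and C1qc together, so these ratios are no finding.

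MHC class II genes were lower in Cd163/Lyve1+ cells. Of the 12 listed genes of class II presentation 8 were tested, of which 0 were higher and 6 lower, with median log2 ratios of -1.33 in the corpus and -1.21 in the cauda. H2-Aa, the alpha chain of I-A, had 1221 CPM in Cd163/Lyve1+ cells and 3037 CPM in double-negative cells of the corpus, and 1547 CPM and 4033 CPM in the cauda. Cd74, the invariant chain that escorts class II molecules, had 4565 CPM and 12220 CPM in the corpus and 5381 CPM and 12595 CPM in the cauda. H2-Ab1 (ratios of 0.382 and 0.384), H2-Eb1 (0.393 and 0.351), H2-DMb1 (0.175 and 0.447) and the protease gene Ctss (0.467 and 0.437) were also lower in the corpus and the cauda. H2-DMa, with ratios of 0.438 (0.309 to 0.613) and 0.551 (0.473 to 0.643), missed the limit in the cauda. MHC class I genes had median log2 ratios of 0.01 in the corpus and 0.03 in the cauda. Of 5 tested 0 passed either way, which in so short a list is near the share over all genes tested (1.59% higher and 1.41% lower). B2m, their shared light chain, was somewhat lower in Cd163/Lyve1+ cells, with 4047 CPM and 4488 CPM in the corpus and 3631 CPM and 4368 CPM in the cauda.

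The class II genes are known to share promoter elements bound by RFX and NF-Y proteins and to need the coactivator CIITA. Ciita itself was scarce, with 3 UMIs in Cd163/Lyve1+ cells against 8 UMIs in double-negative cells of the corpus and 36 against 28 UMIs in the cauda. These are raw counts, from sets of 436353 and 392796 UMIs in the corpus and 2249380 and 720752 UMIs in the cauda. Per UMI of the set, Ciita was thus lower in Cd163/Lyve1+ cells of both libraries, on few UMIs. The start regions of 3 of the genes that moved together are shown (RefSeq, GRCm38.p6, the same window and strand as above), with each match of GATTGG, the core of the Y box that NF-Y binds, or of its reverse complement CCAATC in capitals.
H2-Aa, chr17:34287774-34288073, minus strand: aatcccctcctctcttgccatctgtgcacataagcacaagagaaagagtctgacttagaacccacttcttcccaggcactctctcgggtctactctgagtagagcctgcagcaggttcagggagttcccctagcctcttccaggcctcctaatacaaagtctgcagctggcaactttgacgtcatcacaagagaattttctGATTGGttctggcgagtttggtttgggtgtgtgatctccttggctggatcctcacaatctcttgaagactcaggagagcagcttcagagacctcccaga
H2-Eb1, chr17:34305617-34305916, plus strand: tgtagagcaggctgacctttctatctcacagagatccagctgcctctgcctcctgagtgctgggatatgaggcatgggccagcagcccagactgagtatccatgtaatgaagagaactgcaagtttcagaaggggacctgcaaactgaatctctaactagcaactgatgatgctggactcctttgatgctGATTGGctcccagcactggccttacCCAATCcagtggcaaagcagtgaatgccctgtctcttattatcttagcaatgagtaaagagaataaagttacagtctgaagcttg
H2-DMb1, chr17:34152941-34153240, plus strand: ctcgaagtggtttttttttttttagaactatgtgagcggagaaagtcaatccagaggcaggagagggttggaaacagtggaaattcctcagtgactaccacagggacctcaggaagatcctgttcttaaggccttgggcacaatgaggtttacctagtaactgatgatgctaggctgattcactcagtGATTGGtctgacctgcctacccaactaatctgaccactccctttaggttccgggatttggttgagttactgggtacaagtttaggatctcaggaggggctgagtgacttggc
The match began 49 bases before the start in H2-Aa, 60 and 35 bases before it in H2-Eb1 and 62 bases before it in H2-DMb1. It was present in any window of 5 of the 7 class II list genes whose windows were searched (Ctss and Cd80 had none). Counted by window and not by gene, it was in 16.1% of all 32851 windows of the table, which cover 27025 gene symbols. A match describes the letters in the window and says nothing about binding in these cells.

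Il1b and Cx3cr1 were lower in Cd163/Lyve1+ cells, while most of the tested genes of their lists did not pass the rule. Over all genes tested 1.59% were higher and 1.41% lower. Of 10 cytokine and inflammatory genes tested 0 were higher and 1 lower, with median log2 ratios of -0.81 in the corpus and -0.17 in the cauda. Of 8 Cx3cr1 and microglia-like genes tested 0 were higher and 2 lower, with medians of 0.06 and 0.24. This list, led by Sparc and Cst3, summed to 4423 CPM in corpus and 10124 CPM in cauda macrophages. In the fibroblast-marker cells it summed to 14682 CPM and 21283 CPM, and the part of their RNA in these medians was not tested. Il1b, the interleukin 1 beta gene, had 48.1 CPM in Cd163/Lyve1+ cells and 420.1 CPM in double-negative cells of the corpus, 8.73-fold lower (5.53 to 14.5), and 33.8 CPM and 280.3 CPM in the cauda, 8.29-fold lower (6.34 to 10.9). Cx3cr1, the fractalkine receptor, had 55.0 CPM and 323.3 CPM in the corpus and 56.5 CPM and 230.3 CPM in the cauda. Rgs1, a regulator of G protein signalling, had 334.6 CPM and 1474 CPM in the corpus and 332.1 CPM and 946.2 CPM in the cauda. Also lower were Lpcat2, Tgfbr1 (a TGF-beta receptor), Slamf7, Skil, Cxcl16 and the TAM receptor gene Axl, along with Bcl2a1a, whose near-identical copies can share its reads. Ccr2, the receptor that draws monocytes into tissue, had 169.6 CPM and 376.8 CPM in the corpus and 231.2 CPM and 578.6 CPM in the cauda. Lyz1, a lysozyme gene close in sequence to Lyz2, had 4 UMIs against 77 UMIs in the corpus, 32 of them in 1 cell, and 221.4 CPM against 521.7 CPM in the cauda. Top2a, a gene of dividing cells, was lower in both libraries, but Mki67 was not (ratios of 1.25 and 0.564), and 0 of 6 cell cycle genes tested were higher and 1 lower.

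Chemokines split both ways. Of 19 listed genes 16 were tested, 3 were higher in Cd163/Lyve1+ cells (Ccl8, Ccl7 and Pf4) and 1 was lower (Cxcl16). Ccl7 had 1063 CPM and 506.6 CPM in the corpus and 1173 CPM and 434.3 CPM in the cauda. Ccl4 had 838.8 CPM in Cd163/Lyve1+ cells and 3182 CPM in double-negative cells of the corpus, and 840.2 CPM and 1565 CPM in the cauda, where its ratio of 0.537 (0.498 to 0.578) missed the limit. Ccl12 had ratios of 1.48 (1.30 to 1.69) in the corpus and 2.93 (2.66 to 3.24) in the cauda. Among 11 chemokine and cytokine receptor genes tested 0 were higher and 3 lower. The lists of lipid-associated macrophages (11 genes tested), oxidative phosphorylation (13), glycolysis (8) and immediate early and heat shock responses (17) had 0 genes past the rule in either direction. Over all genes tested 1.59% were higher and 1.41% lower, so a count of 0 in lists this short is near the overall share. Apoe, a lipid carrier that macrophages make in quantity, had 11864 CPM and 12500.1 CPM in the corpus and 12763 CPM and 11172 CPM in the cauda.

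**Figure D3:**
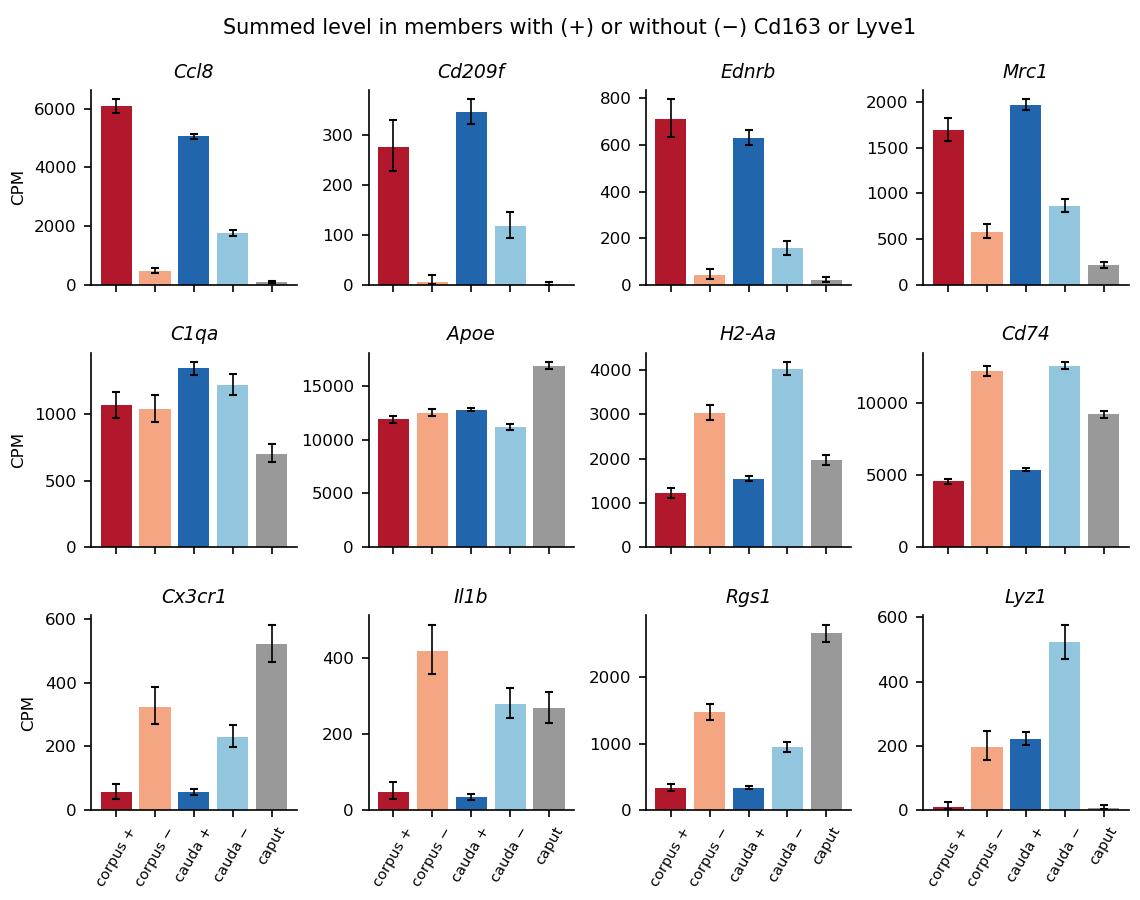
Levels in CPM (vertical axes, each from 0) of 12 genes in Cd163/Lyve1+ (+) and double-negative (−) macrophages of corpus and cauda and in all caput macrophages; bars are sums over cells and lines exact Poisson 95% intervals. Ccl8, Cd209f, Ednrb and Mrc1 are higher in the + sets, and H2-Aa, Cd74, Cx3cr1, Il1b and Rgs1 are higher in the − sets.

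RNA of other cell types moved with the sets to some extent. The 10 listed fibroblast genes summed to 6291 CPM in Cd163/Lyve1+ cells and 2187 CPM in double-negative cells of the corpus, and to 23814 CPM and 17368 CPM in the cauda, against 8216 CPM and 47024 CPM in the other cells of the corpus and the cauda. The typical cauda cell went the other way from the cauda sum: the median of Col1a1, Col1a2 and Dcn together was 38.5 UMIs per 10000 in Cd163/Lyve1+ cells and 62.3 UMIs per 10000 in double-negative cells of the cauda, against 6.00 and 3.88 in the corpus. None of the 8 fibroblast genes tested passed the rule, and none of the 10 was at 0. Erythroid genes summed to 9078 CPM and 15774 CPM in the corpus and 3395 CPM and 5089 CPM in the cauda. Without macrophages that had 50 or more UMIs of Col1a1, Col1a2 and Dcn per 10000, which left 88 and 124 corpus and 244 and 87 cauda cells, 40 genes were higher and 26 lower. The part of fibroblast and erythroid RNA in the other differences was not tested.

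Cells with only 1 of the 2 genes were not alike, in a division made after the values were seen. H2-Aa levels in Lyve1-only cells were nearer to those of cells with both genes, while Cd163-only cells had levels nearer to those of double-negative cells. H2-Aa had 469.1 CPM in corpus cells with both, 814.1 CPM in Lyve1-only, 3095 CPM in Cd163-only and 3037 CPM in double-negative cells. In the cauda these values were 1296, 1201, 3811 and 4033 CPM. H2-Aa was 3.80-fold higher (3.08 to 4.73) in Cd163-only than in Lyve1-only cells of the corpus and 3.17-fold higher (2.89 to 3.48) in the cauda, and 3.90-fold (1.86 to 8.31) and 2.74-fold (2.19 to 3.43) after thinning to 1000 UMIs. Against double-negative cells its ratio in Cd163-only cells was 1.02 (0.899 to 1.15) in the corpus and 0.945 (0.878 to 1.02) in the cauda, and after thinning 0.547 (0.321 to 0.874) with 12 Cd163-only cells in the corpus and 0.864 (0.727 to 1.02) in the cauda. Cd74 had 2542 CPM with both, 4145 CPM in Lyve1-only, 8661 CPM in Cd163-only and 12220 CPM in double-negative corpus cells, and 4408, 4694, 12235 and 12595 CPM in the cauda. After thinning, the corpus Cd163-only cells had 4833 CPM of it, nearer to the 2818 CPM of cells with both than to the 10731 CPM of double-negative cells, and those of the cauda had 8803 CPM. With all UMIs, Cd163-only cells had levels of Ednrb and Ccl8 between those of Lyve1-only and double-negative cells. Ednrb had 861.9 CPM with both, 868.4 CPM in Lyve1-only, 236.7 CPM in Cd163-only and 40.7 CPM in double-negative corpus cells, and 659.8, 673.5, 356.9 and 155.4 CPM in the cauda. Ccl8 had 9317, 4796, 2291 and 478.6 CPM in the corpus and 5048, 5817, 2899 and 1765 CPM in the cauda. After thinning, with the division made again, the gap to Lyve1-only cells was not seen in the cauda. Ednrb had 754.1 CPM in Cd163-only and 705.5 CPM in Lyve1-only cells there (ratio 1.07, 0.742 to 1.52), and Ccl8 had 5836 CPM and 5963 CPM (0.979, 0.864 to 1.11). A cell with both genes counts as Cd163-only once thinning removes its Lyve1 UMIs. The thinned classes, also those of H2-Aa and Cd74 above, are therefore not the same cells as with all UMIs. The part of depth in the gap was not tested. The thinned corpus ratio of Cd163-only over Lyve1-only cells was 0.650 (0.221 to 1.59) for Ednrb and 0.555 (0.389 to 0.776) for Ccl8. The 20 corpus and 57 cauda Cd163-only cells had medians of 3704.5 and 3808 UMIs, close to those of Lyve1-only cells (3498 and 3923.5).

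Double-negative cells were mixed as well. By UMIs of Cx3cr1 and Ccr2, a division also made after the values were seen, 45 corpus and 44 cauda cells had only Cx3cr1, 17 and 44 only Ccr2, 15 and 13 both, and 50 and 94 neither. Il1b was at 112.9 CPM in Ccr2-only and 827.4 CPM in Cx3cr1-only cells of the corpus, and at 220.8 CPM and 649.9 CPM in the cauda. Rgs1 had 550.6 CPM and 2524 CPM in the corpus and 437.0 CPM and 2056 CPM in the cauda, and Apoe 5548 CPM and 18860 CPM and 6101 CPM and 16779 CPM, in the same order of cells. MHC class II went the other way: H2-Aa had 6127 CPM in Ccr2-only and 2128 CPM in Cx3cr1-only cells of the corpus and 6578 CPM and 1998 CPM in the cauda. Ear2, an eosinophil-type ribonuclease gene, was at 1031 CPM in Ccr2-only and 0 CPM in Cx3cr1-only cells of the corpus and at 734.4 CPM and 26.6 CPM in the cauda, and Fn1 (fibronectin) at 790.6 CPM and 50.7 CPM and at 513.6 CPM and 10.7 CPM. In both libraries Il1b, Rgs1 and Apoe were thus lower, and H2-Aa, Ear2 and Fn1 higher, in Ccr2-only than in Cx3cr1-only cells. After thinning to 1000 UMIs, with the division made again, each of these ratios kept its side of 1, but that of Il1b in the corpus was 0.258 (0.0287 to 1.11), on 2 against 15 UMIs, and Fn1 there rested on 7 against 3 UMIs (ratio 4.52, 1.03 to 27.1). The thinned corpus cells with neither gene had 571.4 CPM of Il1b, against 483.9 CPM in Cx3cr1-only cells. With all UMIs these values were 343.2 CPM and 827.4 CPM. The classes changed in between, as cells that lose their Cx3cr1 UMIs count as having neither. In the corpus 77 cells had neither gene after thinning in place of 50, and 31 had only Cx3cr1 in place of 45. The 94 cauda cells with none of the 4 genes had a median of 1609 UMIs and 4895 CPM of Ccl8 with 1180 CPM of H2-Aa, values near those of Cd163/Lyve1+ cells of the cauda. The 50 such corpus cells had 1089 CPM of Ccl8 and 1865 CPM of H2-Aa at a median of 2300 UMIs.

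**Figure D4:**
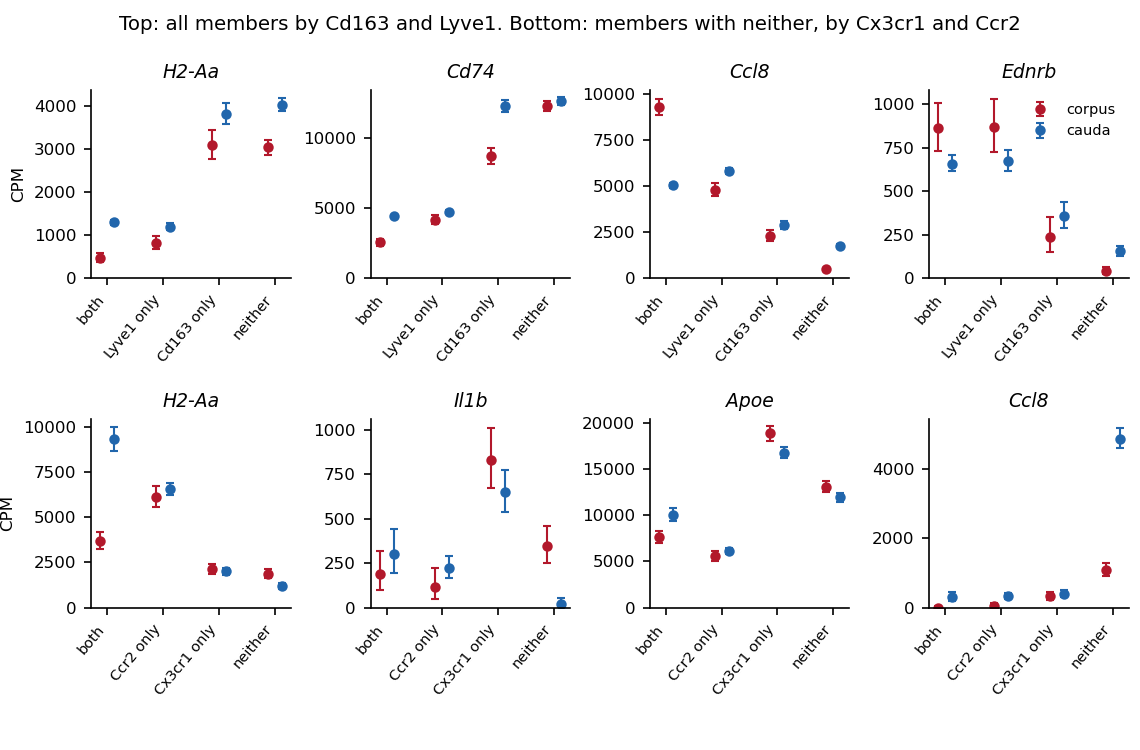
Levels in CPM (vertical axes from 0) with exact Poisson 95% intervals, corpus in red and cauda in blue. The top row divides all C1q macrophages by Cd163 and Lyve1 and shows H2-Aa and Cd74 low in cells with Lyve1; the bottom row divides double-negative cells by Cx3cr1 and Ccr2 and shows Il1b and Apoe highest in Cx3cr1-only cells when all UMIs are used.

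Corpus macrophages against cauda macrophages differed by at least 2-fold, with an interval excluding 1 and at least 50 UMIs in the higher library, in 119 of 6258 genes upward (1.9%) and 528 downward (8.44%). Genes of other cell types were among both. Of 10 fibroblast genes 9 were lower in corpus macrophages (summed 4347 CPM in the corpus and 22250 CPM in the cauda, with none at 0), 7 of 12 epithelial genes tested were higher (10909 CPM and 4789 CPM) and so were 4 of 4 erythroid genes (12250 CPM and 3806 CPM). Without macrophages rich in Col1a1, Col1a2 and Dcn (limit as above) 256 genes were lower in place of 528, while 105 were higher; the part of other cells' RNA in the rest was not tested. The genes named here therefore had a level in macrophages no lower than in the other cells of the library where they were higher.

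Spp1, which encodes osteopontin, had 100 UMIs in corpus macrophages and 8 UMIs in cauda macrophages (120.6 CPM and 2.69 CPM, ratio 44.8, interval 21.9 to 107). In the corpus its UMIs came from 15 cells, 27 of them from 1, and in the other cells it was at 2.64 CPM in the corpus and 1.77 CPM in the cauda. Corpus Cd163/Lyve1+ cells had 57.3 CPM of it and corpus double-negative cells 190.9 CPM, and the caput macrophages had 112.1 CPM (87.2 to 142). Il1b had 224.3 CPM in corpus and 93.6 CPM in cauda macrophages, a ratio of 2.40 (1.98 to 2.90). Its ratio was 1.42 (0.834 to 2.33) within Cd163/Lyve1+ cells and 1.499 (1.21 to 1.85) within double-negative cells, both nearer to 1 than in all macrophages. Slamf7 and Skil, both higher in double-negative cells, had corpus over cauda ratios of 2.69 and 2.51 in all macrophages, 2.42 and 1.83 in Cd163/Lyve1+ cells and 1.72 and 1.91 in double-negative cells. Cadm1 and Ppp1r11 had ratios of 2.85 and 2.83.

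Gsg1, Dbil5 and Smcp are known from testis and sperm, and their corpus level rested on few cells. Of 237 UMIs of Smcp (a protein of the sperm mitochondrial capsule) in corpus macrophages 119 came from 1 cell, and 1 cell held 32 of 55 UMIs of Gsg1 and 52 of 89 of Dbil5. Germ cell genes summed to 158.0 CPM in corpus and 79.5 CPM in cauda macrophages and to 373.3 CPM and 163.9 CPM in the other cells, with Tnp1 at 0 in both sets of macrophages. Among genes higher in the cauda, Mucl1 (176 UMIs, against 0 in the corpus) and Prg4 (115 against 2) were values of single cells, which held 169 and 114 of those UMIs. The others were Samd4, Cdk19, Fbxo33, Hopx, Agap3, Hs2st1, Zswim8 and Arhgef1, all at 2 to 4 UMIs in the corpus and 55 to 90 UMIs in the cauda. Samd4, with the widest ratio of these, had 3.62 CPM in corpus and 29.0 CPM in cauda macrophages (8.003-fold lower in the corpus, 2.65 to 39.6). In the other cells the cauda over corpus ratio of these 8 genes ran between 1.05 for Zswim8 and 3.72 for Hopx. The macrophage genes described above varied in this comparison. In all macrophages H2-Aa had a corpus over cauda ratio of 0.968 (0.918 to 1.02), Cd74 1.15 (1.12 to 1.18), Ccl8 0.805 (0.773 to 0.838) and Mrc1 0.686 (0.640 to 0.735). F13a1 had a ratio of 0.562 (0.513 to 0.615), Cx3cr1 1.85 (1.51 to 2.25) and Lyz1, which passed the rule, 0.332 (0.261 to 0.417). The ratio of Ccl8 was 1.20 (1.15 to 1.25) within Cd163/Lyve1+ cells and 0.271 (0.231 to 0.316) within double-negative cells.

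**Figure D5:**
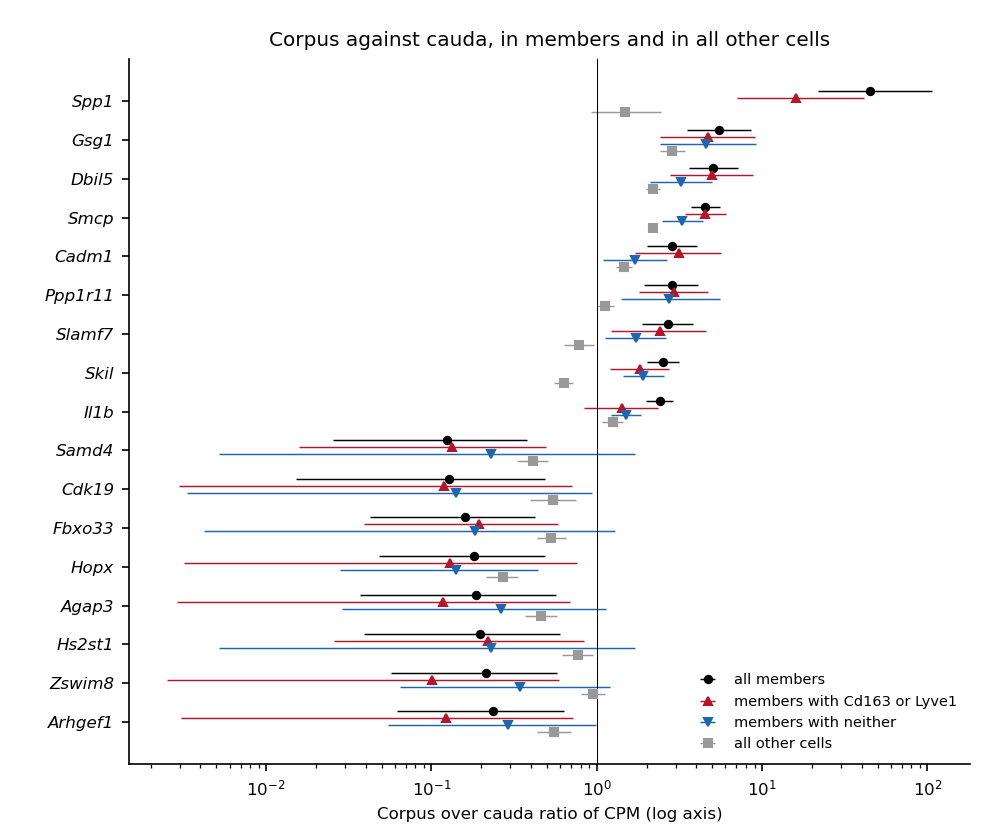
Corpus over cauda ratio of CPM (horizontal log axis, lines exact 95% intervals) for the genes named in the text, in all C1q macrophages (black), Cd163/Lyve1+ cells (red), double-negative cells (blue) and all other cells (grey). Mucl1 and Prg4, which rest on 1 cell each, and sets with a count of 0 are left out; Spp1 stands at 44.8 in macrophages and 1.49 in other cells.

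C1q macrophages against myeloid cells under the C1q limit (52 corpus and 94 cauda cells with Csf1r or Adgre1 and the myeloid genes Tyrobp and Fcer1g) gave 187 of 3615 genes higher (5.17%) and 31 lower (0.858%) in both libraries by the 2-fold rule with at least 30 UMIs. C1qa and C1qc are among the higher genes by construction. Pf4, a platelet-type chemokine also made by macrophages, had 1821 CPM in corpus macrophages and 20.4 CPM in the corpus myeloid cells, and 2448 CPM and 314.3 CPM in the cauda. Ccl8 had 2845 UMIs against 3 UMIs in the corpus (ratio 224, 76.7 to 1090) and was 12.1-fold higher (10.4 to 14.3) in the cauda. Lyve1 was not seen in the corpus myeloid cells, at least 28.2-fold higher in corpus macrophages, and 13.2-fold higher (8.97 to 20.2) in the cauda. Monocyte-associated genes went the other way. Plac8 had 79.6 CPM in macrophages and 428.4 CPM in myeloid cells of the corpus and 72.7 CPM and 195.9 CPM in the cauda, Fn1 138.7 CPM and 810.9 CPM in the corpus and 128.6 CPM and 576.9 CPM in the cauda, and Ear2 153.2 CPM and 836.4 CPM in the corpus and 165.6 CPM and 458.5 CPM in the cauda. Napsa, S100a4, Tnip3, Olfm1 and Bhlhe40 were lower too. Of 9 class II genes tested 1 was higher (Cd86, a costimulatory ligand) and 4 were lower, and the resident macrophage list had 15 of 19 higher.

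Set against the 145 caput macrophages, 196 of 2522 genes were higher (7.77%) and 153 lower (6.07%) in both corpus and cauda macrophages by the 2-fold rule with at least 50 UMIs. Both comparisons share the caput cells. Of the resident macrophage list 18 of 19 genes tested were higher. Ccl8 had 3431 CPM in the corpus, 4262 CPM in the cauda and 86.1 CPM in the caput, and F13a1 had 663.3, 1180 and 22.8 CPM. Cd163 had 123 and 745 UMIs in corpus and cauda and 1 UMI in the caput, and Cd209f had 122 and 863 UMIs and 0 in the caput, at least 30.2-fold and 59.6-fold higher. Ccl24, Chp2, Clec10a and Fcna were likewise at 2 to 5 UMIs in the caput. The genes that were lower in corpus and cauda included Lpcat2, with 67.5, 31.6 and 209.6 CPM in corpus, cauda and caput, Tgfbr1, with 55.5, 21.2 and 198.3 CPM, and Il1a (interleukin 1 alpha), with 44.6, 16.8 and 139.8 CPM. Klra2, Rgcc, F11r and Acta2 were lower as well, though 157 of the 323 Acta2 UMIs of the cauda came from 1 cell. Of the 9 Cx3cr1 and microglia-like genes tested 0 were higher and 3 lower. Cx3cr1 itself had 323.3 CPM in corpus double-negative cells, 230.3 CPM in cauda double-negative cells and 521.7 CPM (466.2 to 581.97) in the caput, and Rgs1 had 1474, 946.2 and 2657 CPM. Class II genes showed 0 of 8 past the rule, with Cd74 at 8192, 7131 and 9216 CPM in all corpus, cauda and caput macrophages. Markers of the epithelial principal cells summed to 10201 CPM in corpus, 4584 CPM in cauda and 18624 CPM in caput macrophages, and their part in this comparison was not tested.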

How the data were processed

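The authors deposited whole-number UMI counts for 24335 genes in 14845 cells of 3 libraries (GEXSCOPE single-cell kit with red cell lysis, HiSeq X10, per the labels' protocols). STAR 2.7.3a, UMI-tools and GRCm38.p6 are named in the submitters' processing notes, and the labels do not state how cells were called or whether doublets were removed. No doublet caller was run here. Of the cells 14555 had 200 or more detected genes. Counts were summed over sets of cells in each library and given as CPM with exact Poisson intervals, ratios with exact conditional binomial intervals and shares with Clopper-Pearson intervals (95%), using Python 3.11.15, numpy 2.4.6, scipy 1.17.1 and pandas 2.3.3. TMM factors (edgeR 4.0.16) served only as an alternative scaling. A count of 0 was set to a floor of 3 UMIs over the set for ratios; PCR is corrected by the UMIs, but intervals cover counting error only. The ratio steps were tested on simulated data. The members, the 32 gene lists and the rules were chosen with earlier results of these data known. Named genes were those with the widest mean ratio past each size rule, the top 4 of each list and the markers. Up to 12 were taken each way for Cd163/Lyve1+ cells, 10 for corpus against cauda and 8 against myeloid and caput cells. Against all other cells 12 higher genes were taken, seen in at least 25% of macrophages of both libraries. Against cauda, myeloid and caput cells the genes also had to be no lower in macrophages than in the other cells of the library where they were higher. Further genes are described outside these rules, and only some of them are said to be named after their values were seen. Transcripts named for clones and mitochondrial genes are not named. Some genes that passed a rule are not reported here.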

Additional observations from a re-analysis of the deposited data

Results flagged for a closer look

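The ratio of Cd163/Lyve1+ cells over double-negative cells pointed opposite ways in corpus and cauda for 5 genes past the 2-fold limit in each, and these differences between libraries were not tested. Cxcl13, a B cell-attracting chemokine, had a log2 ratio of 4.31 in the corpus (44 against 2 UMIs) and -4.71 in the cauda (17 against 143 UMIs), but 1 cell held 34 of its 46 UMIs in the corpus and 1 cell 138 of its 160 in the cauda. Col6a5, a collagen VI chain, had log2 ratios of -1.11 and 1.95 in corpus and cauda, with 18 against 35 UMIs in the corpus, 29 of them in 1 cell, and 1911 against 158 UMIs in the cauda. Sult1e1, an estrogen sulfotransferase, had log2 ratios of -1.22 and 1.45 in corpus and cauda. The heat shock gene Hspb1 had -1.26 and 1.17 in corpus and cauda. Ccl5, a chemokine of T cells and macrophages, had 1.47 in the corpus, where 1 cell held 20 of 53 UMIs, and -1.28 in the cauda, where 1 double-negative cell held 43 of that set's 121 UMIs. Without the highest cell of each set its ratio was 2.0004 (0.871 to 4.99) in the corpus and 0.567 (0.426 to 0.758) in the cauda, where it fell short of the 2-fold limit. On the same terms Col6a5 had 1.05 (0.302 to 3.78) in the corpus, while Sult1e1 had 0.500 and 3.37 and Hspb1 0.424 and 2.58 in corpus and cauda.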

How the results depend on the processing

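No paired analysis was possible because each region has 1 library, and for the same reason no replicate could be left out. Of 2256 recomputed values of named genes 1917 stayed within the interval of the first value, 337 moved beyond it and 2 reversed. The settings differed widely in this. Thinning to 1000 UMIs with the division made again moved 85 values and left 71, and a C1q limit of 30 moved 49 and left 106. A division by Cd163 alone moved 34 and left 14, and by Lyve1 alone moved 18 and left 30. Doubling the minimum or setting it to 1 cannot alter a ratio and moved none. The 156 values of each of these 2 settings are counted among the 1917, so that number overstates how stable the values were. Acta2 in cauda over caput macrophages came to a log2 ratio of 0.30 with a C1q limit of 30, and Dbil5 in corpus Cd163/Lyve1+ over double-negative cells to 0.56 without its highest cell. Mucl1 and Prg4 gave no ratio without their highest cell or within Cd163/Lyve1+ cells. TMM scaling moved no named value beyond its interval, and shifted all genes by -0.16 (log2) between the corpus sets and by 0.19 between cauda macrophages and myeloid cells.
The share of macrophages among kept cells (4.60% corpus, 12.5% cauda, 2.94% caput) was 3.81%, 10.7% and 2.33% with a C1q limit of 30. In the cauda it was 15.9% among cells with 500 genes, 15.98% without cells over 20% mitochondrial UMIs (5.64% in the corpus) and 11.3% with no UMI of the excluding genes. The Cd163 or Lyve1 share was 27.9%, 50.8% and 0% in corpus, cauda and caput when thinned, 32.4% and 55.4% in corpus and cauda with at least 2 UMIs, and in the cauda 72.0% with a C1q limit of 30 and 73.7% without macrophages rich in fibroblast RNA, an alternative added after seeing the data, like leaving out the highest cell and the ratios within sets.
Counts of genes moved by over 1.5 times as follows, higher and lower. Thinning to 1000 UMIs, which leaves fewer UMIs to pass the minimum, gave 6 and 11 for Cd163/Lyve1+ against double-negative cells (20 and 13 with the division by all UMIs kept, added after seeing the data), 37 and 156 for corpus against cauda, 86 and 5 against other cells, 78 and 11 against myeloid cells and 69 and 56 against the caput. Doubling the minimum gave 23 and 19 for the first, 60 and 302 for the second, 146 higher against other cells, 17 lower against myeloid cells and 116 higher against the caput. A minimum of 1 gave 66 and 66 for the first, 789 higher for the second, 579 higher against other cells, 124 lower against myeloid cells and 442 and 615 against the caput. A division by Cd163 alone gave 1 and 16, and by Lyve1 alone 22 higher. Corpus against cauda gave 72 higher within Cd163/Lyve1+ cells, 61 and 225 within double-negative cells and 256 lower without macrophages rich in fibroblast RNA. The 16 genes lower than in other cells became 5 with a C1q limit of 10, 100 with a limit of 30, 27 with no UMI of the excluding genes, 9 with cells weighted equally, 141 without macrophages rich in fibroblast RNA and 70 without the highest cell. The cause of these changes was not tested otherwise. Depth limits the corpus sets most, with 436353 and 392796 UMIs in Cd163/Lyve1+ and double-negative cells, against 2249380 and 720752 in the cauda.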
